A study of Mus musculus with 11 samples.

Results

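The genes described here encode the machinery of synaptic vesicle release and vesicular glutamate transport, measured in single neuronal nuclei of the mouse trigeminal ganglion after injury. They are a fixed list of 38 genes chosen by function, and all 38 were listed in each of the 7 tables made by 10x Chromium capture, among 17612 genes common to those tables. The Drop-seq control table held 37 of them, since Pclo was not listed there. The list comprises 6 calcium sensors, 9 SNARE proteins and their regulators, 10 proteins of the active zone and of vesicle priming, 10 vesicle proteins and 3 vesicular glutamate transporters.

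Transmitter release from the central terminals of sensory neurons depends on synaptic vesicles that are filled with glutamate, docked at the active zone and primed for fusion. Fusion is driven by the SNARE proteins on vesicle and plasma membrane, and synaptotagmins couple it to calcium entry. Somatosensory neurons of the trigeminal ganglion signal touch, temperature, itch and pain from the face to the brainstem, and nearly all use glutamate as their fast transmitter. The protein products work far from the nucleus, at terminals in the brainstem, so the levels below are those of nuclear transcripts in the ganglion.

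Nuclei were isolated from ganglia pooled from several male and female mice older than 6 weeks, enriched with an antibody to NeuN, and profiled without dissociating the cells. Control mice were C57BL wildtype, with 4 Drop-seq libraries given in 1 table and a 10x library. C57BL mice with infraorbital nerve transection (IOT), labelled as spared nerve injury of the infraorbital nerve, were examined at day 2, 7, 21 and 75, with 1 library for each day. A further 10x library came from C57BL mice with facial injury, in which the skin of the cheeks and forehead was cut but not deeper tissue, and the last from mice with scratch lesions. The mice with scratch lesions were of mixed FVBN/C57BL/129 strain and double heterozygous for Fos-tTA and a tetO-mCherry-2A-Gnaq mutant transgene, and strain, transgenes and lesions cannot be told apart there. Fos-tTA is meant to switch on the tetO transgene in cells with Fos promoter activity, and the study saw no mCherry in sensory neurons. Only part of the ganglion projects through the cut nerve, and its superficial branches alone were transected, so each library held injured and spared neurons side by side.

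The 8 tables held 40359 nuclei, from 3178 to 8660 each, with a median of 1747 to 4178.5 UMIs (unique molecular identifiers, each a captured RNA molecule) per nucleus. Nuclei with at least 3 UMIs of the injury genes Atf3 and Sema6a together were called injured, those with none uninjured, and those with 1 or 2 were placed in neither group. By this measure 614 nuclei were injured on day 2 after IOT, 285 on day 7, 234 on day 21 and 150 on day 75, against 89 after facial injury, 176 with scratch lesions and 33 in the 10x control. The share of them in the clusters with the injury markers, described below, was 81.1%, 91.6%, 75.2% and 48.7% on these days. It was 53.9% after facial injury, 59.1% with scratch lesions and 0% in the 10x control. The control library therefore gives the background of the definition, 0.755% of its nuclei, and the summed level of 8 injury markers other than these genes was 1587 to 3745 CPM (UMIs of a gene scaled to a common total of UMIs in each sum) in injured nuclei after IOT, against 373 to 524 CPM in uninjured nuclei of the same libraries. Markers of small diameter neurons stood at 1194 to 2051 CPM in injured and 4235 to 5715 CPM in uninjured nuclei after IOT, and those of satellite glia at 479 to 781 CPM against 349 to 748 CPM. Those of large diameter neurons were at 9531, 6986, 12952 and 10741 CPM in injured nuclei on days 2, 7, 21 and 75. In uninjured nuclei they were at 11324, 8670, 13521 and 9099 CPM. Injured nuclei also held more UMIs, with a median of 4351 against 3048.5 on day 2. Pairs of libraries shared 16 to 92 cell barcodes.

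To set the baseline, the 38 genes were first compared between neuron classes in uninjured nuclei. Clustering without these genes, without 170 further genes of the release pathway and without all marker genes gave 24 clusters, of which 13 carried the markers of a class, 2 the injury markers, and 9 remained unnamed. Classes are written with the suffix "-like", since they were rebuilt from markers. The small diameter classes are C1/2-like (Trpm8, cooling), C3-like (Fam19a4, C-fiber touch), C7-10-like (Tac1 and Trpv1, peptidergic), C11-like (Nppb and Sst, itch), C12-like (Mrgpra3, itch) and C13-like (Mrgprd), and the large diameter classes are C4-like (S100b and Nefh), C5-like (Ntrk2) and C6-like (Calca with Nefh).

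In 5 of the 38 genes, the lowest of the 7 libraries in the highest class lay above the highest library of the next class, as in 2.98% of the 12841 genes tested between large and small neurons below. For 17 genes the highest class median was at least 4 times the lowest (13.4% of all genes), besides Rab3b and Slc17a8, whose lowest class median was 0, and for 5 it was under 2 times. These ranks are among the 9 named classes only. The unnamed clusters held 13822 of the 40359 nuclei, and in 18 of the 38 genes the median of the highest unnamed cluster exceeded that of the highest class. Counting the unnamed clusters too, only Cadps2 and Slc17a8 were wholly separated. Among the named classes alone, Syn1, Rab3a, Rab3c, Rims2 and Nsf, which act in vesicle tethering, priming and SNARE recycling, had the flattest profiles. The highest unnamed cluster was well above the highest class for Rab3a (median 729 against 330 CPM), Rab3c (608 against 248) and Nsf (558 against 375). For Syn1 the values were 405 against 392 CPM, and for Rims2 488 against 647 CPM.

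**Figure D1:**
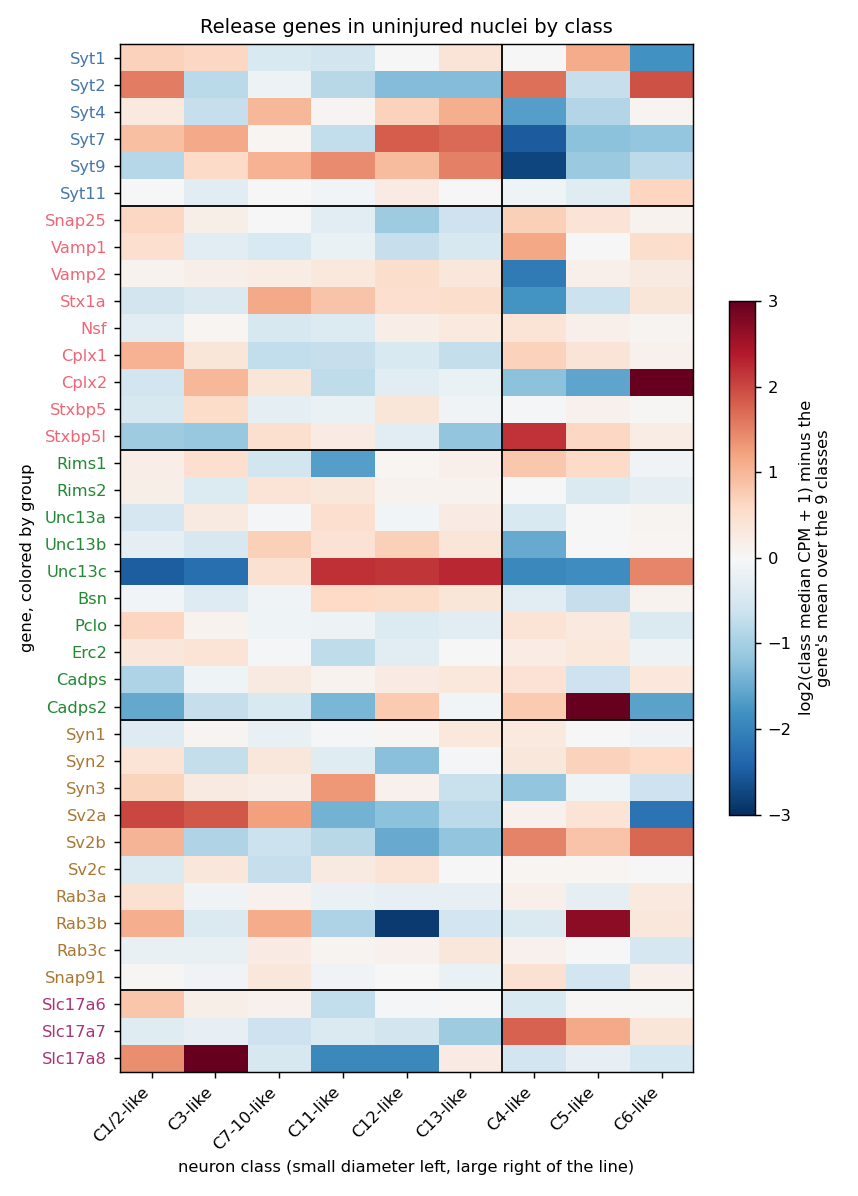
Level of each of the 38 genes (rows, colored by role) in uninjured nuclei of 9 neuron classes (columns, small diameter left and large right of the line), as log2 of the median CPM over 7 libraries plus 1, minus the mean of the gene over the 9 classes. Unnamed clusters are not shown. Dark red cells mark the highest named class of genes such as Cplx2 in C6-like, Cadps2 in C5-like and Slc17a8 in C3-like nuclei, and Unc13c is dark blue in the C1/2-like, C3-like, C4-like and C5-like columns.

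Among the calcium sensors, Syt1 and Syt2, the fast sensors for synchronous release, had different distributions. Syt1 was highest in C5-like nuclei, with a median over the 7 libraries of 3143 CPM, and lowest in C6-like nuclei with 416 CPM. Its C6-like range of 240 to 563 CPM lay below the range of every other named class. Among the classes Syt2 was instead highest in C6-like nuclei at 480 CPM, followed by C4-like at 402 and C1/2-like at 372 CPM, and the ranges of these 3 classes overlapped. Unnamed cluster 18, scored as large and led by Calb2, was higher at a median of 814 CPM. Levels of different genes were set side by side per kilobase, of the gene with its introns or of its exons, and the scale can change their order. Per kilobase of gene, Syt1 stood at 0.811 and Syt2 at 4.14 CPM in C6-like nuclei, and per kilobase of exon at 49.9 and 62.8 CPM. In C5-like nuclei Syt1 exceeded Syt2 on both scales, at 6.12 against 0.683 CPM per kilobase of gene and 377 against 10.4 CPM per kilobase of exon.

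Syt7, a high-affinity sensor linked to asynchronous release and vesicle replenishment, was abundant in the small classes. It reached 845 CPM in C12-like and 788 CPM in C13-like nuclei, against 42.2 CPM in C4-like nuclei. Syt9 followed a related order, from 400 CPM in C13-like to 19.7 CPM in C4-like nuclei, and both genes were thus lowest in the class of large Nefh-positive neurons. Syt4, which sits on dense-core vesicles, ranged from 572 CPM in C13-like to 83.9 CPM in C4-like nuclei. Syt11, which does not bind calcium, differed by 2.02 times between its highest and lowest class.

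Of the SNARE group, Cplx2 and Stxbp5l had the widest spread between classes. Complexins clamp and promote fusion by binding the assembled SNARE complex. Cplx2 had a median of 499 CPM in C6-like nuclei, with a range of 347 to 739 CPM, against 96.8 CPM in the next class, C3-like. An unnamed cluster came nearer, with a median of 248 and a highest library of 413 CPM. Cplx1 was more even, from 708 CPM in C1/2-like to 207 CPM in C7-10-like nuclei. Per kilobase of gene Cplx2 exceeded Cplx1 in C6-like nuclei, at 39.7 against 11.9 CPM, but per kilobase of exon it was lower, at 101 against 171 CPM. In C4-like nuclei Cplx2 was below Cplx1 on both scales, at 1.59 against 17.5 CPM per kilobase of gene. Stxbp5l (tomosyn-2, an inhibitor of SNARE assembly) reached 284 CPM in C4-like nuclei, with 208 CPM in its lowest library, and the C5-like nuclei that came next did not exceed 189 CPM. Unnamed cluster 1, also scored as large, held a similar level, with a median of 273 and a range of 201 to 488 CPM, so Stxbp5l was not limited to C4-like nuclei. Its relative Stxbp5 ranged only from 80.6 to 166 CPM.

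The vesicular SNAREs Vamp1 and Vamp2 had opposite profiles. Among the classes Vamp1 was highest in C4-like nuclei at 231 CPM, below the 765 CPM of unnamed cluster 18, and Vamp2 was lowest there at 45 CPM, against 288 CPM in C12-like nuclei. Stx1a, the plasma membrane SNARE, was also lowest in C4-like nuclei at 10.7 CPM and highest in C7-10-like nuclei at 87.8 CPM. Snap25, its partner, ranged from 1126 CPM in C4-like to 329 CPM in C12-like nuclei, and Nsf, the ATPase that takes spent SNARE complexes apart, differed by 1.86 times over the named classes.

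Of the active zone and priming genes, Cadps2, Unc13c, Rims1 and Unc13b separated the classes by at least 4 times. Cadps2 (CAPS2, a priming factor for dense-core vesicles) had a median of 1213 CPM in C5-like nuclei, 10.3 times the 118 CPM of the next class, C4-like. Its relative Cadps was lowest in C1/2-like nuclei at 608 CPM and next lowest in C5-like nuclei at 752 CPM. Munc13 proteins, encoded by the Unc13 genes, make docked vesicles competent to fuse. Unc13c lay between 459 and 882 CPM in every library of the C11-like, C12-like and C13-like classes, between 244 and 591 CPM in C6-like nuclei, and at no more than 58.7 CPM in any library of the C1/2-like, C3-like, C4-like and C5-like classes. Unc13a differed by 2 times, and Unc13b was lowest in C4-like nuclei at 43.3 CPM.

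Among the vesicle genes, the SV2 family showed the clearest split. Sv2a was highest in C1/2-like and C3-like nuclei, at 93 and 85.1 CPM, and its highest library in C6-like nuclei held 11.5 CPM. Sv2b was highest in C6-like and C4-like nuclei at 367 and 313 CPM and lowest in C12-like nuclei at 38.4 CPM, whereas Sv2c differed by 2.15 times. Rab3b, a vesicle GTPase, had its highest level in C5-like nuclei at 46.2 CPM with no library under 22.5 CPM, against 14.8 CPM in C7-10-like nuclei. In C11-like nuclei, of which the libraries held only 37 to 136, the highest library reached 40.5 CPM. The synapsins tether vesicles to the cytoskeleton, and Syn2 and Syn3 differed by 3.86 and 5.77 times between classes.

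The vesicular glutamate transporters followed different classes. Slc17a6 (VGLUT2) was present in all, from 93.5 CPM in C11-like to 282 CPM in C1/2-like nuclei. Among the classes Slc17a7 (VGLUT1) was highest in C4-like nuclei at 110 CPM, below the 327 CPM of unnamed cluster 18, although its 7 libraries spread from 56.1 to 293 CPM and overlapped those of C5-like nuclei. Slc17a8 (VGLUT3) had a median of 64.1 CPM in C3-like nuclei, with a range of 24.5 to 80.1 CPM, and did not pass 13.5 CPM in any library of any other named class. Per kilobase of gene, Slc17a7 exceeded Slc17a6 in C4-like nuclei, at 9 against 2.34 CPM, whereas per kilobase of exon the values were 20.4 and 21.3 CPM. In C13-like nuclei Slc17a7 was the lower on both scales, at 1.21 against 3.22 CPM per kilobase of gene. Even in C3-like nuclei the level of Slc17a8 was below that of Slc17a6, at 1.36 against 3.64 CPM per kilobase of gene and 13.6 against 33.1 CPM per kilobase of exon.

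**Figure D2:**
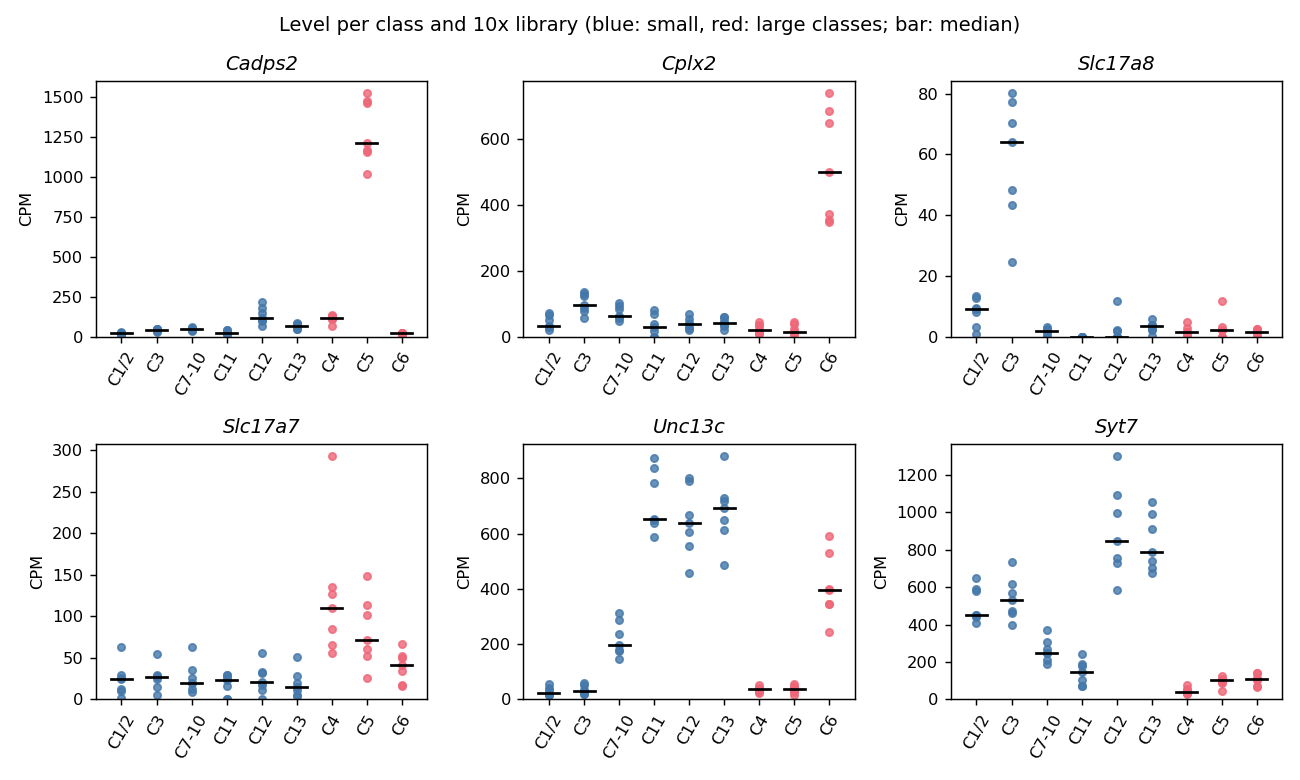
CPM of 6 genes in uninjured nuclei of each class (names shortened by the suffix), with 1 point per 10x library and a bar at the median, blue for small and red for large diameter classes. All 7 C6-like points of Cplx2 and all 7 C5-like points of Cadps2 lie above every point of the other named classes, whereas the C4-like and C5-like points of Slc17a7 overlap.

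The class profiles were compared in the Drop-seq control table, which was not used to rank them. The highest class was the same for 22 of the 37 genes present there. For the 5 genes whose highest class lay wholly above the next class it was the same in every case, with Cplx2 at 1069 CPM in C6-like, Stxbp5l at 174 CPM in C4-like, Cadps2 at 865 CPM in C5-like, Rab3b at 55.1 CPM in C5-like and Slc17a8 at 155 CPM in C3-like nuclei. The Rab3b and Slc17a8 values rest on 10 and 31 UMIs. With a coarser and a finer clustering, 34 and 33 of the 38 genes had the same highest class. No cluster of the coarser one was named C6-like, and the genes that changed there were those highest in C6-like nuclei, Cplx2, Sv2b, Syt2 and Syt11. In the finer one Cplx2 was again highest in C6-like nuclei, but with a median of 283 CPM against 499 CPM.

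Large and small diameter neurons were then tested against each other over the 7 10x libraries. Of the 38 genes, 19 were higher in large and 15 higher in small nuclei in edgeR's quasi-likelihood test with the library as a block, where 59.0% of the 12841 genes tested were called, 28.9% and 30.1% in these directions. A majority of all genes thus passed this test, and the size of a difference tells more than its call. Syt11, Erc2, Rab3a and Rab3b were not called.

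In 6 genes the 7 large levels lay above all 7 small levels (5.09% of all genes tested), and in 8 they lay below (3.20%). Stxbp5l ranged from 140 to 303 CPM in large nuclei, with a median of 182, and from 31.5 to 69.3 CPM in small nuclei, with a median of 44.3 (log2 difference 2.02 ± 0.059 SE, adjusted p = 9.81e-17). Sv2b (log2 difference 1.81), Syt2 (1.58), Cplx2 (1.38), Vamp1 (1.31) and Cadps2 (1.21) were the others without overlap. Syt7 had the largest difference of the 38 in the opposite direction, from 473 to 748 CPM in small nuclei (median 518) against 50.7 to 109 CPM in large nuclei (median 79.4). Its log2 difference was -2.82 ± 0.098 (adjusted p = 1.35e-15), or 7.04 times higher in small nuclei. Syt9 (-2.67), Slc17a8 (-2.62), Sv2a (-1.55), Syt4 (-1.47), Unc13c (-1.36), Stx1a (-1.15) and Unc13b (-0.89) were also separated between the groups. Slc17a7 was higher in large nuclei of all 7 libraries, with a log2 difference of 1.97, but its groups overlapped.

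By role, 7 of the 9 SNARE genes and 6 of the 10 vesicle genes were higher in large nuclei, whereas 4 of the 6 calcium sensors were higher in small nuclei. The median log2 difference was 0.65 for the SNARE genes and -1.07 for the calcium sensors, beside -0.01 over all genes tested. The active zone genes were split, with 4 higher in large and 5 in small nuclei.

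These differences matter for the injury comparison, because injured nuclei held lower levels of small neuron markers than uninjured nuclei of the same library. Large neuron markers were lower in them as well on days 2, 7 and 21, and higher on day 75. The effect of injury is therefore given against all uninjured nuclei, and then against large or small uninjured nuclei alone. With sums over nuclei, a different mix of neurons and a different level per neuron cannot be told apart from the first comparison on its own.

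Each condition was 1 pooled library, so the 4 IOT days served as the replicates of the injury test. After IOT, 16 of the 38 release genes differed between injured and uninjured nuclei of the same library, with 7 higher and 9 lower. Beside them, 19.9% of the 14163 genes tested were called, 11.3% higher and 8.58% lower, and the median log2 difference was -0.18 over the 38 genes and -0.01 over all genes. The shares of the 38 are above these in both directions, for which no test is given. The direction was not common to a role: 1 of 6 calcium sensors rose and 2 fell, 1 of 9 SNARE genes rose and 2 fell, 1 of 10 active zone genes rose and 4 fell, 3 of 10 vesicle genes rose and 1 fell, and 1 of 3 transporters rose. In 2 of the genes that rose all 4 injured levels lay above all 4 uninjured levels (3.77% of all genes tested), and in 4 of those that fell they lay below (5.31%).

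**Figure D3:**
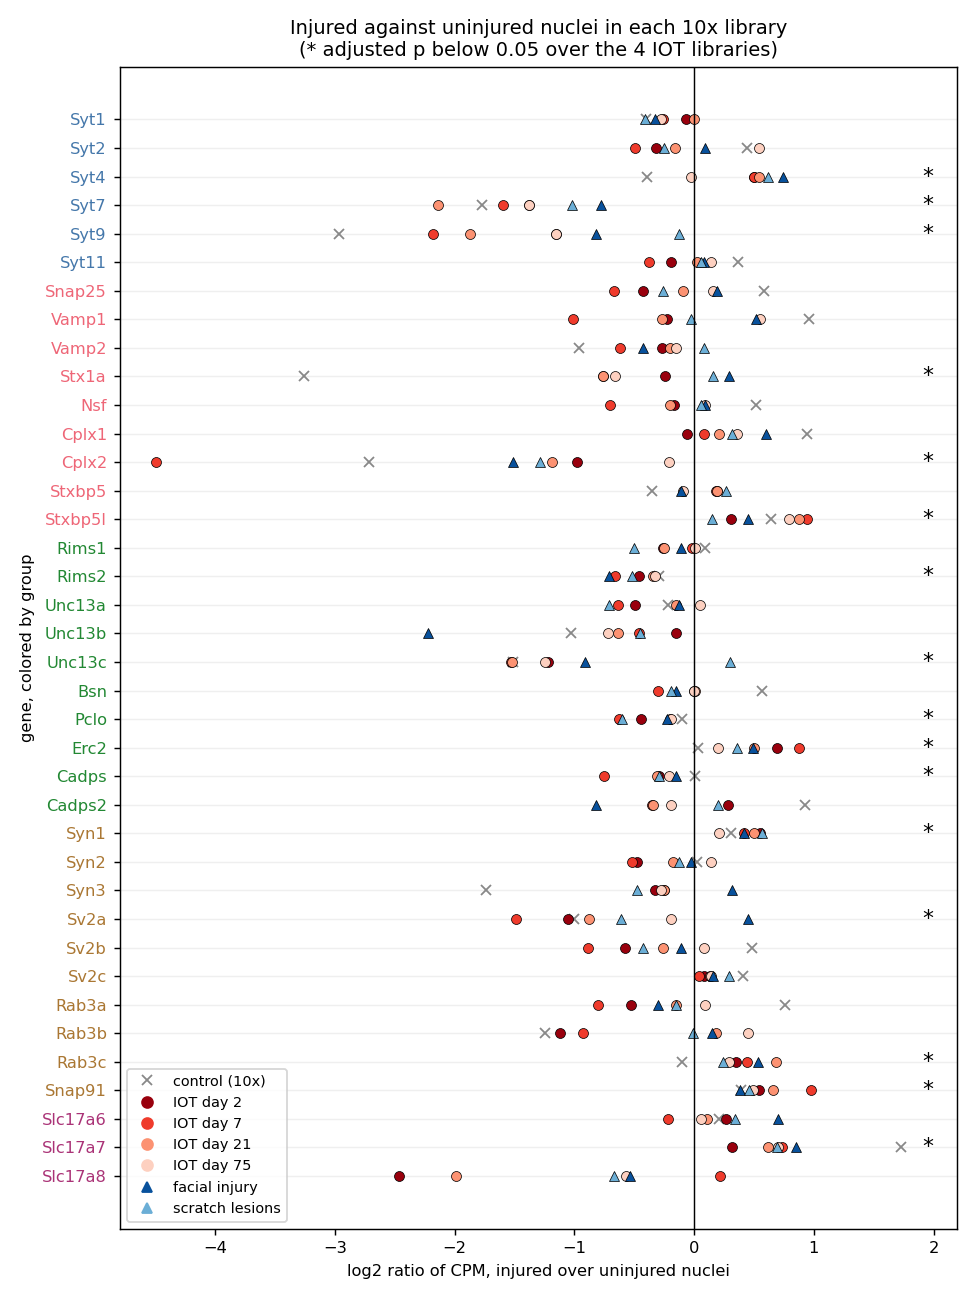
Log2 ratio of the level in injured nuclei over that in uninjured nuclei of the same 10x library for each of the 38 genes (rows, colored by role), with circles for the 4 IOT days, triangles for facial injury and scratch lesions, and crosses for the control library. Stars mark the 16 genes called over the 4 IOT libraries. Snap91, Erc2, Rab3c, Syn1, Stxbp5l and Slc17a7 lie to the right of 0 in all 6 injury libraries, and Syt7 lies between -2.14 and -0.78 in them.

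The genes that rose include an inhibitor of fusion, a scaffold and several vesicle proteins. Stxbp5l, the tomosyn described above, was at 237, 219, 428 and 184 CPM in injured nuclei on days 2, 7, 21 and 75, against 191, 114, 232 and 106 CPM in uninjured nuclei. It was higher in 4 of 4 libraries, although the day 75 injured level was under the day 2 and day 21 uninjured levels. The log2 difference was 0.79 ± 0.109 (adjusted p = 5.45e-05), or 1.72 times.

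Snap91 (AP180), an adaptor that helps clathrin retrieve vesicle membrane, was at 429, 442, 517 and 384 CPM in injured nuclei against 296, 224, 328 and 273 CPM in uninjured nuclei, in the same order of days. The groups did not overlap, and the log2 difference was 0.73 ± 0.106 (adjusted p = 8.41e-05). Erc2 (CAST, a scaffold of the active zone) was at 1289, 868, 968 and 862 CPM against 798, 471, 687 and 749 CPM. Its groups did not overlap either, although the ratio on day 75 was small, and the log2 difference was 0.63 ± 0.117 (adjusted p = 0.000758).

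Slc17a7 was at 51.7, 203, 43.6 and 148 CPM in injured nuclei against 41.5, 123, 28.4 and 91.3 CPM in uninjured nuclei. Levels differed more between libraries than between the groups, yet each injured level exceeded the uninjured level of its own library (log2 difference 0.66 ± 0.107, adjusted p = 0.000234). Rab3c, a vesicle GTPase, was at 315, 403, 465 and 280 CPM against 247, 297, 289 and 230 CPM, and its day 75 injured level fell within the uninjured range (0.51 ± 0.097, adjusted p = 0.00106). Syn1 was at 488, 602, 374 and 415 CPM against 333, 450, 264 and 360 CPM, with overlap through the high day 7 uninjured level (0.49 ± 0.099, adjusted p = 0.00163). Syt4 was higher on days 2, 7 and 21, at 259, 281 and 315 CPM against 183, 199 and 217 CPM, whereas on day 75 it was at 331 against 338 CPM (0.44 ± 0.113, adjusted p = 0.00966).

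Among the 9 genes that fell, 4 changed by more than 2 times. Syt7 was at 98.6, 112, 44.5 and 97.9 CPM in injured nuclei and 256, 341, 196 and 255 CPM in uninjured nuclei. Every injured level was below every uninjured level, and the log2 difference was -1.51 ± 0.122 (adjusted p = 1.67e-07). Syt9 was at 52.3, 28.4, 24.1 and 73.2 CPM against 116, 128, 88.2 and 163 CPM, again without overlap (-1.39 ± 0.154, adjusted p = 5.31e-06). Unc13c was at 115, 55.5, 77.9 and 106 CPM against 268, 160, 223 and 251 CPM. Its ratios were alike on all 4 days, between -1.53 and -1.22, and the groups did not overlap (-1.29 ± 0.147, adjusted p = 6.77e-06). Cplx2 was at 42.9, 4.73, 32.5 and 100 CPM against 84.8, 107, 73.9 and 116 CPM, so that its ratio ranged from -4.50 on day 7, where injured nuclei held 4 UMIs, to -0.21 on day 75 (-1.04 ± 0.264, adjusted p = 0.00901).

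The other 5 fell by less. Sv2a was at 9.77, 11.8, 10.2 and 30.6 CPM against 20.2, 33.1, 18.8 and 35.1 CPM, with overlap through day 75 (-0.75 ± 0.204, adjusted p = 0.0146). Stx1a was at 31.2, 30.7, 21.3 and 21.3 CPM against 37, 51.9, 36.1 and 33.6 CPM, without overlap (-0.47 ± 0.145, adjusted p = 0.0289). Rims2, a RIM scaffold that ties vesicles to calcium channels, was lower in all 4 libraries by 0.33 to 0.66 on the log2 scale (log2 difference -0.37 ± 0.091, adjusted p = 0.00713). Cadps (-0.32 ± 0.096, adjusted p = 0.0255) and Pclo (Piccolo, -0.29 ± 0.095, adjusted p = 0.0397) were likewise lower in 4 of 4 libraries, with overlapping groups.

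Several members of the fusion machinery were among the 22 genes not called, whereas Stx1a and Cplx2 were called. Syt1 was at 1391, 731, 1378 and 1156 CPM in injured nuclei against 1464, 876, 1376 and 1402 CPM (log2 difference -0.08 ± 0.093, adjusted p = 0.604). Snap25 (-0.19 ± 0.111), Vamp2 (-0.24 ± 0.113), Nsf (-0.17 ± 0.105) and Slc17a6 (0.14 ± 0.102) were also below the threshold for a call. In the size-matched comparison described below, Nsf fell in large (-0.44) and in small nuclei (-0.59). There Syt1 fell in small (-0.72) and Snap25 in large nuclei (-0.73), and Vamp2 was called in neither. Bsn (Bassoon, the partner of Piccolo) had a log2 difference of 0.00 ± 0.095, with 122, 139, 111 and 143 CPM in injured nuclei. Slc17a8 was near its limit of detection, at 0.63 to 5.96 CPM in injured nuclei.

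Leaving out each of the 6 injury libraries in turn left 11 of the 16 genes called in every case. Syt4 (adjusted p = 0.0638 without day 2 and 0.0701 without day 21), Pclo, Sv2a, Stx1a and Cadps were each lost without at least 1 library. When uninjured nuclei were drawn to the same depth as the injured ones, Stx1a (adjusted p = 0.135), Rims2 (0.0628), Pclo (0.143) and Sv2a (0.122) were no longer called. In DESeq2, Cplx2 (-1.42, adjusted p = 0.125), Stx1a (0.0949) and Pclo (0.0697) were not called. Cplx2 was also among the genes not called with injury set at 1 or more UMIs (-0.24) or at 2 or more (-0.81).

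The 33 control nuclei that met the definition of injury give the background. They were deeper, with a median of 6994 against 3135.5 UMIs, and none fell in the injured clusters. In them 5 of the 7 genes that rose were above 0 on the log2 scale and 8 of the 9 that fell were below, among 20 of 37 genes above 0 in all. Syt7 (-1.77), Syt9 (-2.97), Cplx2 (-2.72) and Unc13c (-1.51) were as low or lower there as after IOT, and Slc17a7 (1.73) was higher, whereas Erc2 (0.03) and Rab3c (-0.10) were near 0. Snap91 stood at 0.39 and Stxbp5l at 0.64. The Syt9 and Cplx2 values rest on 4 and 5 UMIs in these nuclei. The control mice had no experimental injury, although the paper reports a few control neurons with injured-type profiles. What part of the IOT values shares a source with these control differences was not tested.

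Setting injured nuclei against large or small uninjured nuclei alone showed which of the 16 differences held against both. Against large nuclei, 6 genes were higher and 9 lower (10.2% and 8.96% of all genes, 19.1% together), and against small nuclei 12 were higher and 14 lower (19.6% and 15.1%, 34.7% together). In 8 genes the call and direction were the same against each, and 4 of these (Stxbp5l, Snap91, Unc13c and Pclo) were also called in both parts of the size-matched comparison described next. For these counts the share of all genes is not given. Stxbp5l (0.34 against large and 2.45 against small nuclei), Snap91 (0.60 and 0.96), Erc2 (0.64 and 0.66), Rab3c (0.41 and 0.70) and Syn1 (0.40 and 0.58) rose, and Unc13c (-0.69 and -1.94), Pclo (-0.36 and -0.26) and Rims2 (-0.30 and -0.53) fell.

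The remaining 8 depended on the nuclei used for comparison. Syt7 was 0.10 ± 0.130 against large nuclei (adjusted p = 0.654) and -2.68 ± 0.150 against small nuclei (adjusted p = 2.49e-09). Syt9 (0.05 and -2.54), Sv2a (0.09 and -1.60) and Stx1a (-0.01 and -0.94) were likewise called only against small nuclei in this comparison. Slc17a7 was 0.13 ± 0.110 against large (adjusted p = 0.491) and 2.31 ± 0.284 against small nuclei (adjusted p = 8.71e-06). Cplx2 was -1.37 against large and -0.10 against small nuclei, and Cadps -0.39 and -0.08. Syt4 turned direction, from 1.14 ± 0.153 against large (adjusted p = 6.17e-05) to -0.36 ± 0.102 against small nuclei (adjusted p = 0.0119).

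**Figure D4:**
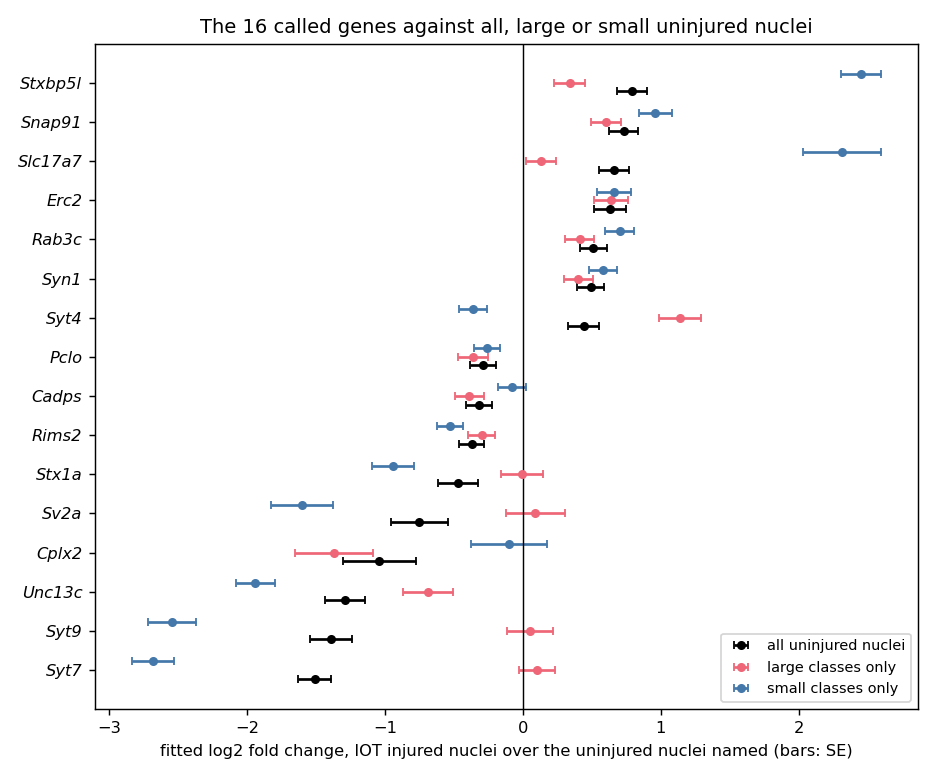
Fitted log2 fold change (points) with its standard error (bars) for the 16 called genes, comparing injured nuclei of the 4 IOT libraries with all (black), large (red) or small (blue) uninjured nuclei. The points of Erc2, at 0.63, 0.64 and 0.66, nearly coincide, whereas those of Syt7 run from 0.10 against large to -2.68 against small nuclei.

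For a closer match in size, injured nuclei of the 2 injured clusters were split by the size markers of their cluster and each part was set against uninjured nuclei of its own size, an alternative chosen after seeing the data. Each injured cluster took the size with the higher score, although all these scores were negative. The large one scored -0.0409 for large and -0.35 for small neuron markers, and the small one -0.295 and -0.0381. Small neuron markers were lower in injured nuclei, and whether injured small neurons were counted as large was not tested. Uninjured nuclei of named clusters took the size of their class. C6-like nuclei thus counted as large, although their cluster scored 0.0884 for large and 0.148 for small neuron markers. The mix of classes within a size was not matched. After IOT, 70 to 389 injured nuclei per library scored as large and 3 to 109 as small, so the small values on day 75 rest on 3 nuclei. Among large nuclei 6 of the 38 genes rose and 13 fell, beside 13.2% and 11.8% of all genes (25.0% together). Among small nuclei 3 rose and 17 fell, beside 4.60% and 6.56% (11.2% together). The median log2 difference was -0.20 in large and -0.59 in small nuclei, against -0.04 and -0.13 over all genes.

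Size matching changed several of the results above. Syt7 was -0.50 ± 0.171 in large nuclei (adjusted p = 0.018) and -1.68 in small nuclei, and Syt9 was -0.62 ± 0.199 (adjusted p = 0.0103) and -1.36, so that both fell in each size. Cplx2 (-2.15 in large and -1.25 in small nuclei) and Cadps (-0.47 and -0.99) were likewise called as lower in each size. In small nuclei Rab3c (-0.07, adjusted p = 0.898), Syn1 (0.16, adjusted p = 0.661) and Erc2 (0.30, adjusted p = 0.273) were not called, although each rose in large nuclei. Rims2 was not called in large nuclei (-0.29, adjusted p = 0.105) and fell in small nuclei (-1.19).

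Of the 19 genes higher in large than in small neurons, 9 fell and 4 rose in the large injured nuclei. The levels of large uninjured nuclei entered both comparisons, so a lean toward falling is partly built into this count. The share of all genes chosen in this way is not given. Cplx2 was at 38.7, 1.69, 4.59 and 38.3 CPM in large injured nuclei on days 2, 7, 21 and 75, on 77, 1, 3 and 15 UMIs. Large uninjured nuclei held 101, 142, 89.3 and 138 CPM (-2.15 ± 0.183, adjusted p = 1.04e-29). The gap was far wider on days 7 and 21 than on days 2 and 75, which this standard error does not reflect. Adjusted p-values of the size-matched fit should not be read as a measure of the spread between libraries. Sv2b was at 143, 87.6, 112 and 217 CPM against 314, 346, 244 and 342 CPM (-1.10 ± 0.138, adjusted p = 8.55e-14), and Vamp1 at 83.5, 72.5, 62.7 and 194 CPM against 158, 311, 144 and 255 CPM (-1.0 ± 0.142, adjusted p = 4.95e-11). For Cplx2 and Sv2b each injured level was below all uninjured levels. Syt2 (-0.78 ± 0.134) and Snap25 (-0.73 ± 0.139) fell as well, neither of which was called when all nuclei were pooled. Snap25 was at 472, 381, 878 and 621 CPM in large injured nuclei and 919, 842, 1274 and 972 CPM in large uninjured nuclei. Among the named classes, Cplx2, Sv2b and Syt2 were highest in C6-like nuclei. The part of a different mix of classes in these falls was not tested.

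Syt4 and Slc17a7 rose in the size group where the gene is low in uninjured nuclei, which is also the level each rise is measured against. In large nuclei Syt4 was at 255, 233, 366 and 486 CPM when injured and 125, 91.4, 125 and 234 CPM when uninjured (1.33 ± 0.138, adjusted p = 5.21e-20), whereas in small nuclei its difference was 0.30 ± 0.165 (adjusted p = 0.268). In small nuclei Slc17a7 was at 33.5, 172, 60.6 and 315 CPM when injured and 17, 16.7, 5.09 and 56.1 CPM when uninjured (2.15 ± 0.307, adjusted p = 1.84e-10), on 13, 25, 4 and 5 UMIs. In large nuclei its difference was -0.05 ± 0.150 (adjusted p = 0.854).

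The difference of the effects between large and small nuclei was tested in the same fit and was called for 10 of the 38 genes (3.27% of all genes), 7 with the higher value in large nuclei (2.38%) and 3 with the lower (0.893%). Slc17a7 (-2.20 ± 0.336, adjusted p = 2.63e-08) and Syt7 (1.18 ± 0.260, adjusted p = 0.000618) had the lowest and the highest values of the 10. Unc13c was not called (0.32 ± 0.275, adjusted p = 0.713), with -1.21 in large and -1.53 in small nuclei, and Snap91 was not called either (0.22 ± 0.216), with 0.87 and 0.66.

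Each injured level was also placed in the range of all uninjured classes and unnamed clusters of its library, 17 or 18 in number. The share of all genes outside this range is not given. Erc2 lay above every class and cluster in 4 of 6 injury libraries, with 1289 against at most 1130 CPM on day 2, 868 against 774 on day 7, 968 against 931 on day 21 and 699 against 695 after facial injury. Snap91 was above the range in 4 of 6 libraries, by the widest margin on day 7 (442 against 348 CPM). Syn1 was above it after facial injury and with scratch lesions, and Slc17a6 after facial injury. Rims2 and Unc13b lay below the range after facial injury and Unc13a with scratch lesions. The remaining 31 genes were within the range in all 6 libraries. Several of these margins are narrow, and no test is attached to them. The cause of a level outside the range was not tested.

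**Figure D5:**
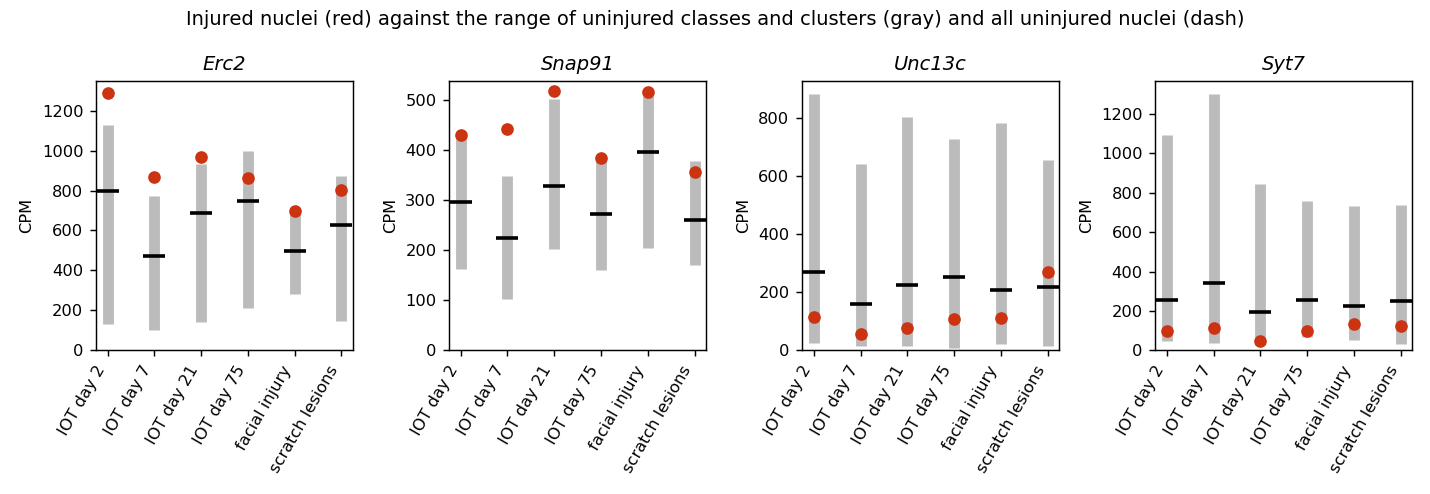
Level in injured nuclei (red points, CPM) of Erc2, Snap91, Unc13c and Syt7 in the 6 injury libraries, with the range over uninjured classes and unnamed clusters as a gray bar and the level over all uninjured nuclei as a dash. The points of Erc2 and of Snap91 lie above the bar in 4 of the 6 libraries each, with Erc2 at 1289 CPM on day 2, and those of Unc13c and Syt7 sit inside the bars in all 6.

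After minor injuries 4 of the 38 genes were called (4.66% of all genes), 2 higher (2.53%) and 2 lower (2.13%). Syt4 was at 640 CPM in injured and 383 CPM in uninjured nuclei after facial injury, and at 596 and 388 CPM with scratch lesions (log2 difference 0.66 ± 0.161, adjusted p = 0.024). Slc17a7 was at 91.8 against 51 CPM and 114 against 70.8 CPM (0.74 ± 0.174, adjusted p = 0.0197). Syt7 was at 132 against 227 CPM and 124 against 250 CPM (-0.93 ± 0.186, adjusted p = 0.00644), and Rims2 at 259 against 423 CPM and 275 against 394 CPM (-0.63 ± 0.140, adjusted p = 0.0139). In these genes both injured levels lay on the same side of both uninjured levels, as in 4 of the 38 above (15.4% of all genes) and 10 of the 38 below (22.6%). The comparison rests on 1 library of each injury, and without either library none of the 38 was called in edgeR's test. Against large uninjured nuclei alone, Syt7 was instead called as higher after minor injuries (0.74, adjusted p = 0.0354 in edgeR). With injury set at 1 or more UMIs, Syt4 was at -0.01 and not called.

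None of the 38 genes differed in its effect between IOT and minor injuries in edgeR's test (5 at an unadjusted p under 0.05, and none with DESeq2, with 4 unadjusted), where 0.0565% of all genes were called, 0.0424% higher and 0.0141% lower. The largest value was that of Unc13c (-1.10 ± 0.261, adjusted p = 0.206), which was at 111 against 208 CPM after facial injury but at 268 against 218 CPM with scratch lesions. Over the 4 IOT days, none of the 38 and 0% of the 14374 genes tested had a trend of the injury effect with log2 day in edgeR (6 of the 38 and 1252 genes at an unadjusted p under 0.05, DESeq2 not run for this), but 10 of the 38 (and 4.69% of all genes) were called when day 2 was left out. In uninjured nuclei, 3 of the 38 genes were lower in all 6 injury libraries than in the 10x control (4.26% of all genes).

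Further genes of the release pathway were tested on 8 lists. Of 148 tested after IOT, 26 rose and 22 fell, beside 11.3% and 8.58% of all genes, with a median log2 difference of -0.02 against -0.01 over all genes. Among 15 other synaptotagmins and related C2-domain proteins, 5 rose and 6 fell, including Rph3a (Rabphilin, a Rab3 effector), which was at 90.4, 39.1, 63.3 and 276 CPM in injured nuclei and 202, 340, 160 and 338 CPM in uninjured nuclei (-1.22 ± 0.238, adjusted p = 0.0013). Its level fell against large (-1.33) and small nuclei (-1.16) alike. Rph3al rose by 1.73 on the log2 scale, with no more than 2.49 CPM in uninjured nuclei, and Syt16 fell by 1.20. Syt16 was lower against small nuclei (-2.10) but was not called against large nuclei (0.45). Among 27 other active zone and docking genes 4 rose and 6 fell, and Rab27b (-1.61, a vesicle GTPase), Rims3 (-1.11) and Lin7b (-1.03) had the largest differences. Lin7b was called against large (-1.31) but not against small nuclei (-0.44).

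Of 27 other SNAREs and regulators 3 rose and 2 fell. Sncb (β-synuclein, 0.85) and Stx3 (0.43, a plasma membrane SNARE) were among those that rose. Of 18 other vesicle membrane proteins 2 rose, with Atp6v0a1 (0.37, a subunit of the proton pump) among them, and 2 fell, Synpr (-1.17, synaptoporin) and Svop (-0.47). Against large uninjured nuclei alone neither Synpr (0.30) nor Atp6v0a1 (0.24) was called. Against small nuclei they were at -2.39 and 0.64, and both were called. Of 29 endocytosis genes 4 rose and 2 fell, with the clathrin light chain Cltb (0.62) and the adaptor subunit Ap2m1 (0.46) higher and Eps15 (-0.61) lower.

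Of 14 genes for dense-core vesicle cargo and its processing 3 rose and 4 fell. Vgf, a neuropeptide precursor, was at 182, 225, 140 and 152 CPM in injured nuclei against 65.7, 84.4, 45.2 and 73.4 CPM (1.46 ± 0.121, adjusted p = 2.26e-07), and its groups did not overlap. Pcsk1, a prohormone convertase, rose (0.84) and Scg2 fell (-0.89). Scg2 was lower against small uninjured nuclei (-1.60) but was not called against large ones (-0.02). Of 14 genes for glutamate synthesis and uptake 4 rose and none fell in edgeR's test. Glul (0.89, glutamine synthetase), Slc38a1 (0.68, a glutamine transporter) and Slc1a4 (0.66, a neutral amino acid transporter) also rose after minor injuries, by 1.10, 0.75 and 0.99. Glul is itself a marker of satellite glia, whose summed markers are given above, and the part of other cells in its value was not tested. Of 4 other vesicular transporters, Slc18a1 (VMAT1) rose by 0.78 on the log2 scale, with 5.79 to 8.48 CPM in uninjured and 8.85 to 17.8 CPM in injured nuclei. Slc18a1 was called against small (1.94) but not against large uninjured nuclei (0.34).

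The 250 bases upstream of the start are shown for the 5 release genes that rose against both large and small uninjured nuclei, of which Stxbp5l and Snap91 also rose in both parts of the size-matched comparison. They are from RefSeq (GRCm38.p6), written 5′ to 3′ on the strand of the gene, and capitals mark matches on either strand to the cyclic AMP response element TGACGTCA, the AP-1 site TGANTCA or the GC box GGGCGG.
Stxbp5l (chr16:37384959-37385208, - strand): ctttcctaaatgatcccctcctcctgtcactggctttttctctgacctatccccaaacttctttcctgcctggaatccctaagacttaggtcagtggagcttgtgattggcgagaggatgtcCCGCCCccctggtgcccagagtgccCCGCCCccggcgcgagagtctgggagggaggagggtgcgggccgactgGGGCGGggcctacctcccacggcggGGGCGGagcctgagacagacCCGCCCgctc
Erc2 (chr14:27622157-27622406, + strand): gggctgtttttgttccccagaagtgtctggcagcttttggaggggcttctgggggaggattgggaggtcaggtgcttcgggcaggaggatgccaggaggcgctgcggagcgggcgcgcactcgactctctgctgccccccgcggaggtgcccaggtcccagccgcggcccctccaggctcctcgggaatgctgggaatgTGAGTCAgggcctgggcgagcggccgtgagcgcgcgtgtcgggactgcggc
Syn1 (chrX:20920919-20921168, - strand): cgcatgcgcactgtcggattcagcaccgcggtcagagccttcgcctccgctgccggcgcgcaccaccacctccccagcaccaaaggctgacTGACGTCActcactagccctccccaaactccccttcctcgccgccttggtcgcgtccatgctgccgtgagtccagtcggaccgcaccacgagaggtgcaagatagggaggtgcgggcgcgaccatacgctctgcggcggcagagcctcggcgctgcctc
Rab3c (chr13:110280207-110280456, - strand): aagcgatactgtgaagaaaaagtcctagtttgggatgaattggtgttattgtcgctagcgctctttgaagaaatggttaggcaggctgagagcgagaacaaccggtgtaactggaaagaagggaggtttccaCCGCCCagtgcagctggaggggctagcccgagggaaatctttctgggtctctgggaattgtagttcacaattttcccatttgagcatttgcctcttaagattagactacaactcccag
Snap91 (chr9:86880709-86880958, - strand): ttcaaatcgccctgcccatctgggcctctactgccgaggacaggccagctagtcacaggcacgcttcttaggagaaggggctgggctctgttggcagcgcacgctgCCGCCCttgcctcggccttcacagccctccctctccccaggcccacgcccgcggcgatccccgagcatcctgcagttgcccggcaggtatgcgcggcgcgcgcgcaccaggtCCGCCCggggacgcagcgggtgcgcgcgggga
The Syn1 sequence holds a cyclic AMP response element 159 bases before the start, and that of Erc2 an AP-1 site 51 bases before it. Stxbp5l has 5 GC boxes in its sequence, Snap91 has 2 and Rab3c has 1. Promoters of 32 of the 38 genes were in the table (250 bases before to 50 after each start), 41 promoters in all. The cyclic AMP response element was in 1 of the 32 genes, or 2.44% of their promoters against 1.79% of all 32851. The AP-1 site was in 2 genes (4.88% against 7.81% of promoters) and the GC box in 26 (65.9% against 35.7%). A match describes the letters only and is no evidence of binding.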

How the data were processed

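Single-nucleus RNA was measured in 11 libraries from pooled mice, 7 by 10x Chromium and 4 by Drop-seq, the last merged in 1 table that does not mark them. The deposited values are raw UMI counts per gene and nucleus. The authors mapped reads to an mm10 reference with introns included, kept nuclei by their number of detected genes and mitochondrial content, and removed non-neuronal clusters. The submitters' processing notes name Cell Ranger 2.1.0, STAR 2.5.3a, Seurat 2 and bcl2fastq 2.17. Total counts ranged from 7735811 to 22003842 per table. Counts include unspliced RNA, so long genes weigh more, and sums over few nuclei are imprecise.

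Nuclei were clustered with leidenalg 0.10.2 on 2000 variable genes, 30 principal components and 20 neighbors (resolution 1), with all members, pathway genes and markers withheld. Clusters were named from class markers (mean z of at least 0.5, a lead of 0.25 and 3 markers), thresholds set after seeing the data. Doublets were not called. Counts were summed per library and state or size and tested with edgeR 4.0.16 (R 4.3.3; quasi-likelihood, TMM, filterByExpr, Benjamini-Hochberg adjustment, two-sided, threshold 0.05) with the library as a block. The state fit had 12 sums and 4 residual degrees of freedom. Atf3 and Sema6a were left out of the state fits, and the size and size-matched fits excluded the clustering genes. The block was in the main design because both sums of a library share their mice and preparation. Scripts were tested on simulated data.

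DESeq2 1.42.0, other definitions of injury, depth matching, clustering resolutions, no block, no filter and each library left out were alternatives. All 38 members were named, and up to 3 called genes per pathway list with the largest change and the same direction in 4 of 4 IOT libraries. A result that this rule would name is not reported here. The members and lists were chosen with earlier results of these data known. Reads of Syt1, Cadps2, Syn2 and Sv2c could be shared with coding genes that overlap them on the same strand.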

Additional observations from a re-analysis of the deposited data

Results flagged for a closer look

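In 3 of the 38 genes, 1 IOT library stood apart from the other 3 in the log2 ratio of injured to uninjured nuclei by Dixon's criterion, which chance meets in about 1 in 20 groups. The ratio of Syt4 on day 75 was -0.03, that of Stxbp5 on day 75 was -0.09 and that of Bsn on day 7 was -0.30. Syt4 was called over the 4 days, whereas Stxbp5 and Bsn were not. On day 75, 48.7% of the injured nuclei fell in the injured clusters, against 75.2% to 91.6% on the other days. Large injured nuclei of those clusters held 486 CPM of Syt4 on day 75, against 234 CPM in large uninjured nuclei. Small ones, 3 nuclei with 13 UMIs, held 818 against 517 CPM.

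Stx1a was lower in injured nuclei of all 4 IOT libraries and higher in both minor injury libraries. The difference of the effects was -0.67 ± 0.273 and was not called (edgeR, adjusted p = 0.673).

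In the size-matched fit, the IOT effect differed between large and small nuclei in 10 genes by a test of that difference in edgeR. Relative to small nuclei, the log2 effect in large nuclei was higher for Syt7 (1.18), Syt4 (1.02), Syn3 (1.0), Syt1 (0.91), Rims2 (0.90), Unc13b (0.88) and Rab3c (0.79). It was lower for Slc17a7 (-2.20), Sv2b (-1.16) and Syt2 (-1.13). The small values of day 75 rest on 3 injured nuclei, and the causes were not tested.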

How the results depend on the processing

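The library block decided most calls. The check of pairing is the design itself, since both sums of a pair come from 1 library. Without the block, 2 of the 38 genes (Syt7 and Unc13c) and 513 of all genes were called after IOT, against 16 and 2821 with it, 0 and 6 after minor injuries (4 and 660 with it), 0 genes for the difference between injuries (8 with it), and 21 and 2541 for size (34 and 7577 with it). With each library left out in turn, the counts ranged from 12 to 18 of the 38 and 1837 to 3352 of all genes after IOT (1837 without day 2), 0 to 9 and 22 to 993 after minor injuries (9 and 993 without day 75, 0 and 180 without facial injury, 0 and 22 without scratch lesions), 0 to 1 and 0 to 71 for the difference (71 without day 75, 19 without day 2, 3 without facial injury, 0 without scratch lesions), 0 to 10 and 3 to 652 for the trend (652 without day 2), and 32 to 34 and 7025 to 7364 for size.

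Against small uninjured nuclei alone, 26 of the 38 and 4448 of all genes were called after IOT, and 16 and 1613 after minor injuries, with 4 genes for the difference. For the mean of the effects in large and small nuclei, the size-matched fit called 26 of the 38 after IOT, 17 and 1020 after minor injuries, and 1 and 74 for the difference. Minor injuries gave 13 and 1100 with the injured clusters against all other nuclei, 8 of the 38 with at least 1 UMI of each injury gene, 226 genes at 1 or more UMIs, and 2 and 372 at 2 or more. The difference gave 4 and 196 with the injured clusters, 2 and 46 with each injury gene, 1 and 46 without a filter, 5 genes with depth matching, 0 at 1 or more UMIs and 2 at 2 or more. The trend gave 22 genes with each injury gene and 106 without a filter. In Drop-seq nuclei 22 of 37 genes kept their highest class. Stxbp5l, Unc13c, Syn1 and Snap91 kept call and direction after IOT under the other settings tried, apart from the missing block, the libraries left out and the size-matched fit.

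Directions reversed after IOT for Vamp1 at 1 or more UMIs (0.27), for Syt7 (0.10), Syt9 (0.05) and Sv2a (0.09) against large nuclei, and for Syt2 (1.14), Syt4 (-0.36), Vamp1 (0.80), Cadps2 (0.62) and Sv2b (1.09) against small nuclei. After minor injuries they reversed for Unc13c with the injured clusters (0.64), Syt4 at 1 or more UMIs (-0.01), Syt7 (0.74) and Syt9 (1.29) against large nuclei, and Syt2 (1.09) and Sv2b (0.94) against small nuclei. Of the genes reversed after minor injuries, all but Syt4 were called in the reversed direction. For size, Rab3c reversed with named clusters only (-0.25). The causes were not tested. Depth limits genes such as Slc17a8, with 1 to 7 UMIs in injured nuclei of an IOT library.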

Other observations

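In uninjured nuclei, Rab3c, Bsn and Sv2b were lower in all 6 injury libraries than in the 10x control. Rab3c was at 318 CPM in the control and 142 to 297 CPM in the others, Bsn at 195 and 111 to 187 CPM, and Sv2b at 266 and 184 to 261 CPM. All 6 injury libraries were below the control in 4.26% of the 12841 genes compared. The control is 1 10x library, so no test was possible. In the Drop-seq control, made with another method, uninjured nuclei held 537 CPM of Rab3c, 97 CPM of Bsn and 279 CPM of Sv2b, and the value of Bsn is below those of all injury libraries. Other genes varied several-fold among libraries in either direction, such as Vamp2 from 62.9 to 222 CPM and Slc17a7 from 28.4 to 123 CPM. The libraries also differed in the share of UMIs from genes shorter than 10 kb, from 17.5% to 24%, and from genes longer than 100 kb, from 33.6% to 44.6%, and the part of this in the levels was not tested.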
